A study of Mus musculus with 17 samples.

Results

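Interferon regulatory factors are transcription factors that switch on the genes of the interferon response. Of the family, 7 genes were chosen by name (Irf7, Irf9, Irf8, Irf5, Irf1, Irf2 and Irf3), and all 7 were found among the 38355 Ensembl identifiers counted in each library. They were followed in hand-dissected hippocampus of untreated wild-type C57BL/6J mice. PolyA RNA was sequenced as single-end libraries at 3 months (3M, n = 5) and 24 months (24M, n = 6), and as paired-end libraries at 3 months (n = 3) and 29 months (29M, n = 3), 17 libraries in all. The 24M samples were compared with the single-end 3M samples and the 29M samples with the paired-end ones, so age and library type cannot be told apart between the 24M and 29M results. The labels give no sex or batch and do not say that each library is a separate animal, so p-values measure the spread between libraries.

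The factors fall into groups by what starts them and what they bind. Irf3 and Irf7 wait in the cytoplasm until a sensor of viral nucleic acid has them phosphorylated, and then switch on the genes of type I interferon. Interferon that reaches a cell activates STAT proteins, which with Irf9 form the complex ISGF3; this complex binds the interferon-stimulated response element (ISRE) of its target genes, and Irf7 is itself such a target. Irf1 is induced by interferon-gamma, and Irf2 competes with it for the same sites. Irf5 acts below Toll-like receptors in myeloid cells, while Irf8 builds the myeloid lineage together with the factor Spi1 and, in the brain, is mainly a gene of microglia. In bulk tissue, a change in the number of cells of a type and a change in RNA per cell cannot be told apart.

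Libraries held 9213474 to 28438296 counts on genes (median 14687436). Replicates 1 and 4 of the 24M group differed by less than the sampling noise, with a ratio of observed to binomial variance of 0.406 where the lowest of the other pairs gave 1.23, so their mean was counted as 1 sample and the 24M group has n = 5. In fits below that left out replicate 1 or 4 singly, the other stayed in, so no whole sample was removed. The tissue carried the markers of hippocampal neurons and of microglia in every group, with summed microglia markers between 469 and 623 CPM (counts scaled to library size with TMM factors). Markers of T cells summed to 2.27 to 6.01 CPM at 3M and 2.42 to 4.84 at 24M in single-end libraries, and to 2.21 to 3.87 at 3M and 4.46 to 4.87 at 29M in paired-end ones. Libraries stood apart in some markers: summed blood markers (hemoglobins and Alas2) reached 544 CPM in 24M replicate 2 against 76.3 to 159 in the other 24M samples, and summed striatal markers reached 357 CPM in 1 3M single-end library against a group median of 71.4. Summed choroid plexus markers varied widely within groups, at 1990 to 8230 CPM at 3M and 4530 to 7630 at 24M in single-end samples. In paired-end samples they were at 3390 to 6200 CPM at 3M and 4010 to 6150 at 29M. The part of choroid plexus in the results was not tested.

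The stretches before the start sites of Irf1, Irf2, Irf7 and Irf8 are shown because interferon signalling is known to act on genes of this family, and those of Bst2 and Ifit3 because they are interferon targets that were called higher at both ages and hold motif matches. They are RefSeq sequences of build GRCm38.p6 that begin 250 bases before the start and carry matches to 3 motifs in capitals. Annotated exon bases that adjoin the start were left out. Exon bases farther upstream were kept, and the Irf2 stretch holds 21 of them. The motifs, searched on both strands, were the ISRE core (GAAANNGAAA), the STAT-binding GAS element (TTCNNNGAA) and the composite element bound by Spi1 with Irf8 (GGAANNGAAA).
Irf1, chr11:53769764-53770013, plus strand: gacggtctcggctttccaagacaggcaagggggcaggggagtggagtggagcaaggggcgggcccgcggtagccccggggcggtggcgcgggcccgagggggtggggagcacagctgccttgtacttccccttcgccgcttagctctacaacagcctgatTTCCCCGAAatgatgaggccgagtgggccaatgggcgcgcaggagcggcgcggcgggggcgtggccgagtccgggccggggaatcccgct
Irf2, chr8:46739495-46739731, plus strand: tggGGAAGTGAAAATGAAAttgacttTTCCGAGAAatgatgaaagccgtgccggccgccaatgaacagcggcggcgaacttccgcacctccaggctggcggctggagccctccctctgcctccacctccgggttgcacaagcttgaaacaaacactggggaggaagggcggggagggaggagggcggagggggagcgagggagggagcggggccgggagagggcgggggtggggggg
Irf7, chr7:141266482-141266674, minus strand: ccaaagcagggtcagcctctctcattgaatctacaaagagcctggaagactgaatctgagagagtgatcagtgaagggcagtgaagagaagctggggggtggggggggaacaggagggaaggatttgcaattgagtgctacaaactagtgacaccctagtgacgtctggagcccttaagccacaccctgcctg
Irf8, chr8:120736108-120736357, plus strand: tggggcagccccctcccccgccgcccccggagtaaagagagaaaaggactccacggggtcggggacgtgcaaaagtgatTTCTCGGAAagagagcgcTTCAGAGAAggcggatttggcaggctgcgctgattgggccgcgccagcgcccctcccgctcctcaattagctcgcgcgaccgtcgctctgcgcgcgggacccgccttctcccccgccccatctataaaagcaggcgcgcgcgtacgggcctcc
Bst2, chr8:71537473-71537722, minus strand: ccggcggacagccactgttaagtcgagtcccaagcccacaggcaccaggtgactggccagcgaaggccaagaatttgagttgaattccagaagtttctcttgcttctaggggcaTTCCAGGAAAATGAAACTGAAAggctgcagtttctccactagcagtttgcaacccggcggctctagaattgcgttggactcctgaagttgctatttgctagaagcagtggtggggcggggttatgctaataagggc
Ifit3, chr19:34583279-34583528, plus strand: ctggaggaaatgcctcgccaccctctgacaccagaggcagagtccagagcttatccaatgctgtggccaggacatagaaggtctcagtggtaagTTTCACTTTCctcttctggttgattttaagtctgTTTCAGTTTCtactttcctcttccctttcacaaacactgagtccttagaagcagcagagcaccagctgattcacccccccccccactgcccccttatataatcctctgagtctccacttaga

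Irf1 held a GAS element at positions -90 to -82 from its start, and Irf8 held 2, at -171 to -163 and -153 to -145. In Irf2 the composite element (-247 to -238) overlapped the ISRE core (-241 to -232), and a GAS element followed at -224 to -216. No match was found in the windows of Irf3, Irf5, Irf7 and Irf9, which says only that these letters are not within 250 bases before and 50 after the starts listed. Bst2 held 2 overlapping ISRE cores, the first overlapped by a GAS element, and Ifit3 held 2 ISRE cores on the minus strand, while the window of Oasl2, also called at both ages, held no match. Among all 27025 genes with a window, 3.99% held the ISRE core, 9.55% the GAS element and 3.16% the composite element. Of the 7 factors, 1 held the ISRE core, 3 the GAS element and 1 the composite element. The ISRE core was found in 12 of 24 listed type I interferon targets with a window and in 11 of 19 listed targets of Irf1 and interferon-gamma. It was in 10.9% of 156 genes called higher at 24M and in 15.0% of 153 called higher at 29M, which include listed targets. The GAS element was in 8.97% and 10.5% of these called genes, and the composite element in 6.41% and 6.54%. Among 11819 tested genes with a window, 3.58% held the ISRE core, 8.05% the GAS element and 2.73% the composite element.

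Irf7 rose most of the 7 factors at 29M. The gene, ENSMUSG00000025498, lies on the minus strand of chr7:141262706-141266481 (GRCm38). In the 3M paired-end samples it was measured at 2.04, 1.96 and 2.61 CPM, and in the 29M samples at 8.08, 4.38 and 6.76 CPM. The lowest 29M sample, replicate 2, still lay above the highest 3M sample. The log2 fold change was 1.56 (SE 0.236, 2.95-fold, adjusted p = 0.00275 in edgeR's quasi-likelihood test). Calling a gene took both an adjusted p not above 0.05 and a log2 change of 0.5 or more in size, and Irf7 stayed called at 29M when any 1 library was left out (log2 fold change 1.37 to 1.76). It was not called with all 4 groups in 1 fit (1.55, adjusted p = 0.110).
At 24M the same gene was not called. Its 3M single-end levels were 1.91, 3.33, 1.66, 2.04 and 1.88 CPM, and 24M replicates 2, 3, 5 and 6 gave 8.19, 2.22, 3.00 and 2.90 CPM, with 4.59 for the mean of replicates 1 and 4. The groups overlapped, since 3M replicate 2 lay above 3 of the 5 aged samples, and 24M replicate 2 lay far above the rest of its group. The log2 fold change of 0.95 (SE 0.323) missed the threshold with edgeR (adjusted p = 0.0904) and passed it with DESeq2 (adjusted p = 0.0350). Without 24M replicate 2 it was 0.56 (adjusted p = 0.229 with edgeR). Irf7 had 24 to 108 counts per sample and shares 45 bases of exon with Phrf1 on the opposite strand.

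Irf9, the DNA-binding subunit of ISGF3, was also called higher at 29M. It lies on the plus strand of chr14:55603571-55610030 (ENSMUSG00000002325). The 3M paired-end samples gave 7.98, 9.62 and 7.37 CPM, and the 29M samples 13.9, 11.9 and 16.1 CPM, with no overlap. Its log2 fold change was 0.74 (SE 0.133, 1.67-fold, adjusted p = 0.00797). Leaving out 29M replicate 1 or 3 ended the call, with adjusted p-values of 0.0512 and 0.0642 at log2 fold changes of 0.75 and 0.62.
In the 3M single-end samples Irf9 was at 8.23, 10.9, 8.12, 9.73 and 8.45 CPM. At 24M, replicates 2, 3, 5 and 6 gave 14.3, 10.6, 10.6 and 9.89 CPM and the mean of replicates 1 and 4 gave 12.2. The highest 3M sample, replicate 2, lay above 3 of the 5 aged samples. The log2 fold change was 0.35 (SE 0.117, adjusted p = 0.0865, not called). Irf9 shares 123 bases of exon with Rnf31 on the same strand, and reads from that stretch cannot be assigned to either.

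Irf8 was the factor called at both ages. It lies on the plus strand of chr8:120736358-120756694 (ENSMUSG00000041515), and encodes a factor required for microglia. In the 3M single-end samples it was at 5.41, 6.29, 5.37, 5.45 and 5.29 CPM. The 24M replicates 2, 3, 5 and 6 gave 8.12, 8.20, 8.65 and 8.71 CPM, and the mean of replicates 1 and 4 gave 7.51. All 5 aged samples lay above all 5 young ones, and the spread within the aged group was small (5.90% of the mean). The log2 fold change was 0.57 (SE 0.0896, 1.48-fold, adjusted p = 0.00520). No left-out library ended the call (0.54 to 0.60), but with all libraries thinned to the smallest total the log2 fold change was 0.47, under the fold threshold, with an adjusted p of 0.0272.
At 29M the change was in the same direction. The 3M paired-end samples gave 4.92, 4.45 and 5.13 CPM and the 29M samples 7.65, 9.13 and 9.16 CPM, again without overlap. The log2 fold change was 0.85 (SE 0.138, 1.80-fold, adjusted p = 0.00445), and it remained called without any 1 library (0.78 to 0.92).
Most microglia markers lay above their 3M level at both ages, as Irf8 did, though few were called. Of 14 markers, 13 lay above 0 at either age, and their median log2 fold changes were 0.32 and 0.33 at the 2 ages. At 24M 1 was called higher (P2ry12, 0.52) and at 29M 1 (Tmem119, 0.51), beside 1.34% of all tested genes at each age. No marker was called in 6 of 11 and 2 of 6 fits that left out a library. The marker sum was 474 to 541 CPM at 3M and 591 to 623 at 24M in single-end libraries, and 469 to 479 and 587 to 607 CPM in paired-end ones. Divided by this sum, an alternative chosen after the data were seen, Irf8 went from 11 ± 0.622 (SD, n = 5) to 13.7 ± 0.933 (n = 5) CPM per 1000 CPM of markers at 24M (exact two-sided permutation test, p = 0.00794, the smallest that 5 against 5 can give). At 29M the ratio was 10.2 ± 0.844 at 3M and 14.5 ± 1.30 (n = 3 each), and the exact permutation p of 0.1 was the smallest possible. The ratios did not overlap: they were 12.6 to 14.7 at 24M against 10.1 to 11.6, and 13 to 15.5 at 29M against 9.29 to 10.9.

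Irf5, which acts in Toll-like receptor signalling of myeloid cells, was not called at either age. It lies on the plus strand of chr6:29526625-29541871 (ENSMUSG00000029771) and shares 411 bases of exon with Tnpo3 on the opposite strand, whose reads cannot be told apart without knowing how strand was counted. The 3M paired-end samples were at 3.48, 3.53 and 3.60 CPM and the 29M samples at 4.46, 5.42 and 5.67 CPM, without overlap. With a log2 fold change of 0.55 (SE 0.167) the size passed the threshold, but the adjusted p of 0.0988 did not. At 24M its values of 3.62 to 4.95 CPM overlapped the 3M range of 3.46 to 4.83, and the log2 fold change was 0.14 (SE 0.132, adjusted p = 0.518).

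**Figure D1:**
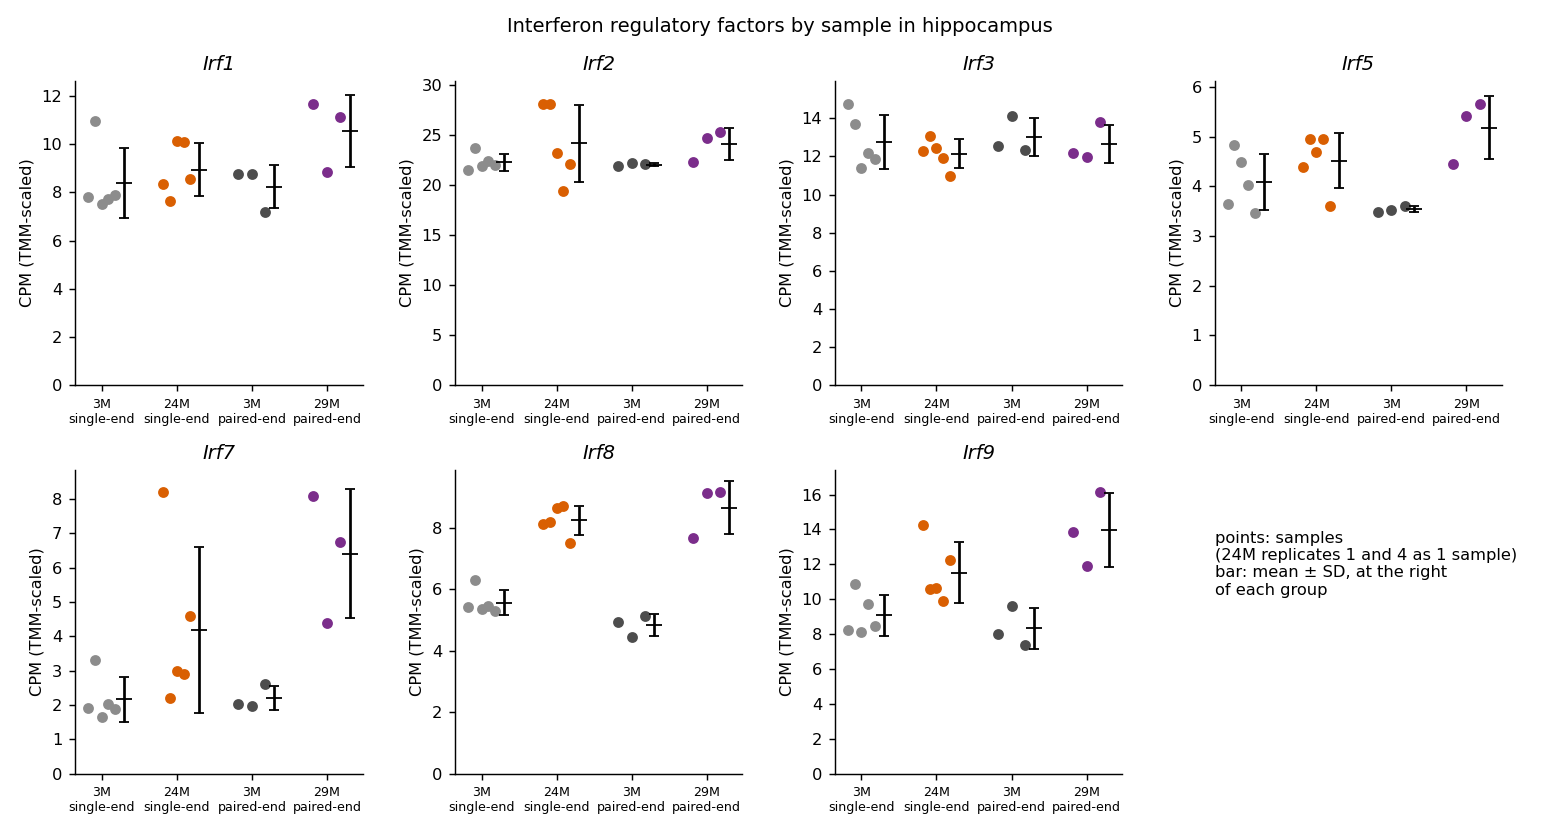
CPM (TMM-scaled) of each of the 7 factors in every sample of the 4 groups, with 24M replicates 1 and 4 as 1 sample, and the mean ± SD at the right of each group; each vertical axis starts at 0. Irf8 separated the ages in both library types, Irf7 at 24M ranged from 2.22 to 8.19 CPM with replicate 2 highest, and Irf3 overlapped everywhere.

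Irf1 and Irf2, the activator and its competitor, were not called at either age. Irf1 (ENSMUSG00000018899) lies on the plus strand of chr11:53770014-53778374, where 135 bases of exon are shared with Gm17334 on the opposite strand, and was at 7.82, 10.96, 7.52, 7.74 and 7.91 CPM in the 3M single-end samples. The 24M values ran from 7.63 to 10.1 CPM, so 3M replicate 2 exceeded every 24M sample, and the log2 fold change was 0.09 (SE 0.124, adjusted p = 0.677). At 29M, 11.7, 8.85 and 11.1 CPM stood against 8.74, 8.77 and 7.19 at 3M. These groups did not overlap, by a margin of 8.77 to 8.85 CPM, and the log2 fold change was 0.36 (SE 0.131, adjusted p = 0.178).
Irf2 (ENSMUSG00000031627) lies on the plus strand of chr8:46739732-46847458. It was the steadiest factor at 3M, with coefficients of variation of 3.82% in single-end and 0.669% in paired-end samples. Its levels were 21.6 to 23.7 CPM at 3M and 19.5 to 28.2 at 24M, where replicates 2 and 3 were high. In paired-end samples it was at 21.9 to 22.2 CPM at 3M and 22.4 to 25.4 at 29M. The log2 fold changes were 0.13 at both ages (SE 0.0932 and 0.0721, adjusted p = 0.412 and 0.381).

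Irf3, the factor that sensors activate first and that is present without stimulation, was not called. Its log2 fold changes were -0.07 (SE 0.0893, adjusted p = 0.658) and -0.04 (SE 0.0998, adjusted p = 0.879) in the order of the ages. It lies on the plus strand of chr7:44997648-45002848 (ENSMUSG00000003184) and shares 88 bases of exon with Bcl2l12 on the opposite strand. Its ranges were 11.4 to 14.8 CPM at 3M and 10.98 to 13.1 at 24M in single-end samples, and 12.3 to 14.1 and 11.98 to 13.8 CPM in paired-end ones. The 95% intervals of the change ran from -0.26 to 0.12 at 24M and from -0.26 to 0.18 at 29M. Without 3M paired-end replicate 2 the 29M estimate turned to 0.03.

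Counted together, 1 of the 7 factors was called higher at 24M, where 1.34% of 15683 tested genes were, and 3 of 7 at 29M, where 1.34% of 15097 were. None was called lower, against a background of 0.638% at 24M and 0.113% at 29M. Without overlap, every aged value lay higher for 1 factor at 24M (3.15% of tested genes) and for 6 at 29M (11.9%). The factors had median log2 fold changes of 0.14 and 0.55 at the younger and older of these ages, beside -0.0032 and -0.0021 for all tested genes. DESeq2 called 2 at 24M (Irf7 and Irf8) and the same 3 at 29M.
The 29M effect was set against the 24M effect in 1 fit of all 4 groups. Point estimates of the difference (29M minus 24M, log2) were 0.60 for Irf7, 0.41 for Irf5, 0.39 for Irf9, 0.27 for Irf8 and 0.26 for Irf1. Their 95% intervals all included 0, with the widest for Irf7 (-0.46 to 1.67). Adjusted p-values of the 7 factors ran from 0.496 to 1 in edgeR's test, none had an unadjusted p under 0.05, and DESeq2 called none. Across 16055 tested genes 0% differed at an adjusted p of 0.05, while 1674 had an unadjusted p under 0.05.

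**Figure D2:**
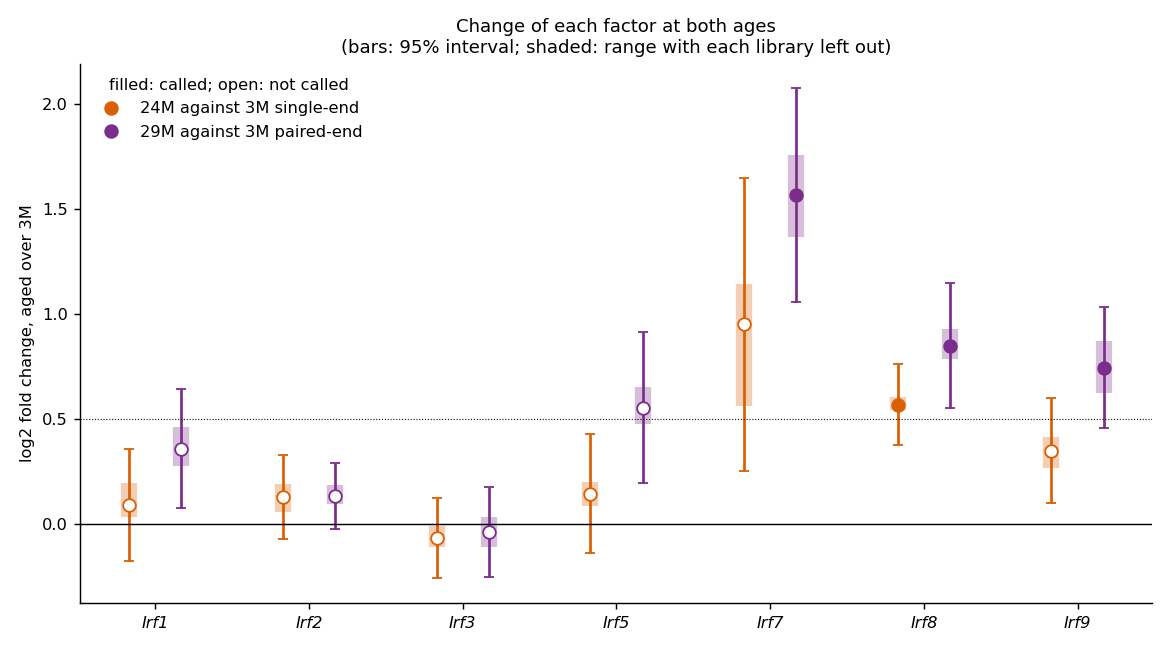
Log2 fold change of each factor at 24M (orange) and 29M (purple) against its own 3M group, with the 95% interval as a bar and the range over fits that each leave out 1 library shaded; filled points were called and the dotted line marks the fold threshold of 0.5. At 24M the filled point is Irf8 (0.57), and at 29M Irf7 (1.56), Irf8 (0.85) and Irf9 (0.74) are filled.

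Levels of different factors were compared per kilobase of annotated exon. In 3M single-end samples Irf3 was the highest at 3.71 ± 0.412 CPM per kilobase (SD, n = 5), then Irf2 at 3.02 ± 0.115 and Irf1 at 2.11 ± 0.363. Irf9 followed at 1.69 ± 0.220, Irf5 at 1.41 ± 0.197, Irf8 at 0.788 ± 0.0581 and Irf7 at 0.573 ± 0.176. Sample ranges of the neighbours Irf1 and Irf9, Irf9 and Irf5, and Irf8 and Irf7 overlapped, and those of the other neighbours did not.
The order was the same in the 3M paired-end samples, from Irf3 at 3.78 ± 0.287 to Irf7 at 0.583 ± 0.0933 CPM per kilobase (n = 3), where Irf8 and Irf7 were the neighbours that overlapped. At 24M it was again the same, from 3.53 ± 0.225 for Irf3 to 1.11 ± 0.637 for Irf7 (n = 5). There Irf3 overlapped Irf2, Irf1 overlapped Irf9 and Irf8 overlapped Irf7. At 29M Irf7 (1.70 ± 0.497 CPM per kilobase) stood above Irf8 (1.23 ± 0.122, n = 3 each), but their ranges overlapped, as did those of Irf1 and Irf9 and of Irf5 and Irf7. The order depends on the length used. With the longest protein-coding transcript, Irf2 stood above Irf3 in all 4 groups (8.94 against 6.29 CPM per kilobase in 3M single-end samples) and Irf8 above Irf5. Irf7 then stood below Irf8 at 29M (2.86 against 3.04).

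Irf4, a family member of lymphocytes, had 41 counts in the 3M single-end and 34 in the 24M samples, and 9 and 12 in the paired-end groups, too few to be tested.

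The genes that start the pathway were examined next. Of 21 interferon ligands listed, 17 had an identifier in the files and none passed the filter on low counts. Ifnb1, the first type I interferon made by an infected cell, had 1 count in the 3M paired-end samples and 0 in the other 3 groups. Ifng had 1 count at 3M and 2 at 24M in single-end samples and 0 in paired-end ones. Summed over the 17 genes, ligands reached at most 0.139 CPM in any sample, so a difference was not detectable at this depth.
Receptors came next. Of 6 receptor genes tested at 24M and 5 at 29M, 0 were called at either age by edgeR or by DESeq2, with unadjusted p under 0.05 for 2 and 0. Ifnar1 and Ifnar2, the chains of the type I receptor, were at 0.003 and -0.004 (log2) in the 24M comparison and at -0.12 and 0.05 in the 29M one. Ifngr1 was at 0.20 and 0.19 and Ifngr2 at 0.01 and 0.02, respectively.
Downstream of the receptors, the subunit Stat2 of ISGF3 had a log2 change of 0.45 at 29M (adjusted p = 0.0125), under the fold threshold, and of -0.0001 at 24M. Jak1 and Tyk2, the kinases of the type I receptor, were at 0.04 and 0.07 (24M) and at -0.04 and 0.08 (29M), and were not called.

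Sensors and their adaptors lie upstream of Irf3, Irf5 and Irf7. Beside 1.34% of all tested genes called higher at each age, 3 of the 23 tested at 24M, of 24 listed, were called higher: Tlr7 (log2 fold change 0.67), Tlr4 (0.65) and Ddx58 (0.54). None of these calls held without 24M replicate 2, and Tlr4 and Ddx58 were also lost in most other fits that left out 1 library. At 29M, 2 of 22 were called, the cytoplasmic RNA sensors Ddx58 (1.02, SE 0.143, adjusted p = 0.00182) and Ifih1 (1.04, SE 0.154, adjusted p = 0.00236), and both held without any 1 library. Both sensors are themselves interferon-induced.
The relay from sensor to factor was not called. Mavs, the adaptor of the RNA sensors, was at -0.12 (log2) and then 0.14, and Myd88, that of Toll-like receptors, at -0.11 and 0.43 (adjusted p = 0.606 and 0.211). Tbk1 and Ikbke, which phosphorylate Irf3 and Irf7, were at 0.14 and -0.03 at 24M and at 0.01 and -0.16 at 29M.

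Targets of ISGF3 were called in the same direction as Irf7 and Irf9. Of 32 listed type I interferon targets, 28 were tested at 24M, 13 were called higher and the median change was 0.68 (log2). At 29M 26 were tested, 16 were called higher and the median was 0.89. None of the targets was called lower, and 1.34% of all tested genes were called higher at each age. The list was written with earlier results of these data known, so its direction is not independent evidence. The antiviral genes Ifit1 (log2 fold change 1.64), Ifit3 (1.55), Ifit3b (1.53) and Oas2 (1.53), and Ifi27l2a (1.71), were the largest of those called at 24M. At 29M these were Rtp4 (2.09), Ifit1 (2.08), Ifi27l2a (2.0), Ifit3 (1.70) and Bst2 (1.55), the last a protein that tethers budding viruses. Ifit3 and Ifit3b are close copies whose reads may be split or lost between them.
Samples differed widely in these targets. Their summed level was 184, 229, 166, 208 and 215 CPM at 3M and 476, 240, 300 and 276 in 24M replicates 2, 3, 5 and 6, with 317 for the mean of replicates 1 and 4. In paired-end samples it was 183, 186 and 211 CPM at 3M and 397, 304 and 391 at 29M. The aged samples all lay above the young ones, and the 24M samples had the same order in this sum and in Irf7. Replicate 2, the highest in both, was also the library with the most blood markers, whose part in the result was not tested. Without that library or without 3M single-end replicate 1, 5 targets were called at 24M in place of 13, and without 3M replicate 3 or 4, 6 were. Of the targets called at 24M, Ifi27, Ifit3, Ifit3b and Trim30a held in all 11 fits that left out a library. Leaving out 24M replicates 1 and 4 together, a fit chosen after seeing the data, gave 5 called targets. At 29M 9 were called without replicate 1 and 10 without replicate 3.

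**Figure D3:**
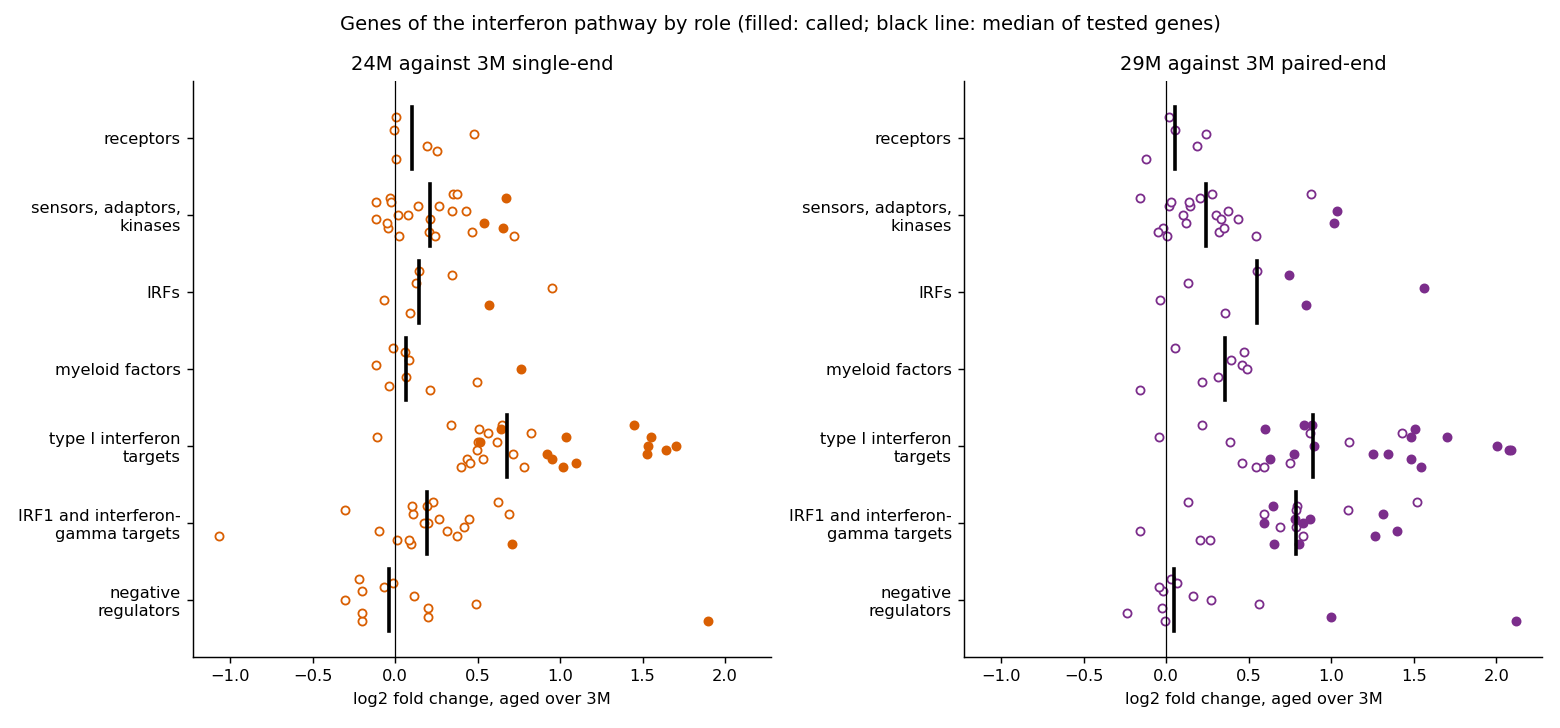
Log2 fold changes of the tested genes of the interferon pathway by role, at 24M (left) and 29M (right); each point is a gene, filled where called, and the black line is the median of the list. Medians of the type I interferon targets were 0.68 and 0.89 and those of the receptors 0.10 and 0.05.

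Targets of Irf1 and interferon-gamma include the guanylate-binding proteins and the genes of antigen processing. At 24M 1 of 20 was called higher (B2m, log2 fold change 0.71), with a median of 0.20, beside 1.34% of all tested genes. At 29M 10 of 22 targets were, with a median of 0.79, beside the same 1.34%. Named by size at 29M they were Nlrc5 (1.40), Irgm2 (1.32), Gbp3 (1.26), Psmb8 (0.87) and Gbp7 (0.83). Nlrc5, Psmb8 and Gbp7 were lost in most fits that left out 1 library, and Irgm2, Gbp3 and B2m held in all 6. T cell markers were also higher in sum at 29M: 2.21, 2.62 and 3.87 CPM at 3M and 4.46, 4.66 and 4.87 at 29M. The sums did not overlap, and 11.9% of single tested genes likewise lay higher in every 29M sample. Cd8a and Cd8b1, the 2 markers without a count in the 3M paired-end samples, had 15 and 16 counts at 29M. They were named for that absence, so counts at 29M could only be higher. In single-end samples the T cell sums overlapped, at 2.27 to 6.01 CPM at 3M and 2.42 to 4.84 at 24M. Only 1 of the 11 markers passed the filter (Lck, log2 fold change 0.14, adjusted p = 0.821), and the part of T cells in the result was not tested. No tested gene passed the test of the difference between the ages, so the counts are not shown to differ.
A single young library bears on the 24M count. 3M single-end replicate 2 was highest of its group in every factor but Irf3. It was also highest in the summed type I interferon targets, microglia markers and blood markers. Its summed level in the targets of Irf1 and interferon-gamma was 336 CPM, against 172 to 198 in the other 4 young samples. The 24M samples were at 236 to 340 CPM. Without 3M single-end replicate 2, 8 targets were called at 24M with a median of 0.60. Without 24M replicate 2, 0 were called by edgeR, with 2 at an unadjusted p under 0.05. At 29M the count was 6 without 3M paired-end replicate 1, 5 without replicate 3, and 4 and 3 without 29M replicates 1 and 3.

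Of the listed restraints on the pathway, 12 were tested at each age. At 24M 1 was called higher and at 29M 2 were, beside 1.34% of all tested genes at either age. Usp18, which blocks the type I receptor, rose at both ages, by 1.90 on the log2 scale at 24M (SE 0.468, adjusted p = 0.0353) and by 2.12 at 29M (SE 0.366, adjusted p = 0.00612). The 24M call was lost in 4 of 11 fits that left out a library, 24M replicate 2 among them, and the 29M call in none. Socs3 was called at 29M (1.0, adjusted p = 0.0452) but in none of the 6 fits that left out a library. The other tested members of the 13 listed were not called, and Trex1 was listed at 0 in every library.
Of the myeloid factors that work with Irf8, 1 of 9 was called at 24M (Runx1, 0.77, lost in 6 of 11 fits that left out a library) and 0 of 8 at 29M by edgeR or DESeq2, where 6 had an unadjusted p under 0.05 by edgeR and 1 by DESeq2. Among all tested genes, 1.34% were called higher at each age. Spi1, which binds DNA beside Irf8, was at -0.04 (log2, adjusted p = 0.941) and at 0.49 (adjusted p = 0.185). The microglial genes Aif1 and Cx3cr1 were at 0.36 and 0.20 at 24M and at 0.34 and 0.36 at 29M.

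Genes with the pattern most like each factor were found by Pearson's r on log2 CPM over the 16 samples, which share library type and age, so r describes these samples only. Irf7 was closest to Oasl2 (r = 0.966), Bst2 (0.962) and Usp18 (0.957) when values were taken from the 3M mean of the same library type. With the group's own mean removed, which takes out the age step, Usp18 (0.956), Ifit1 (0.923) and Ifitm3 (0.922) were closest. Among the 50 genes most like Irf7, of 14198 compared, 20 were listed interferon targets by the first measure and 22 by the second, of 45 compared.
Irf9 was closest to Ddx58 (r = 0.923), Rnf213 (0.917) and Xaf1 (0.915) from the 3M mean, and to Lrrc2 (0.849), Bloc1s6 (0.844) and Ly6a (0.843) within groups. Of its 50 nearest genes, 12 and 13 were interferon targets, and 3 and 0 were microglia markers. Irf7 and Irf9 had an r of 0.901 with each other and of 0.725 within groups.
Irf8 was closest to Lag3 (r = 0.98), C4b (0.961) and Vim (0.953) from the 3M mean, where the young and aged samples form separate clusters, so that r mostly describes the age step. Within groups Nup188 (0.773), Irf5 (0.767) and Fcrls (0.758), a microglial gene, were nearest. Its 50 nearest genes held 0 and 1 interferon targets by the 2 measures, and 5 and 1 of 14 microglia markers. Irf7 and Irf8 had an r of 0.751 from the 3M mean and -0.0317 within groups, and Irf5 and Irf8 0.802 and 0.767.
Among the factors that were not called, Irf1 was closest to Cd14, a co-receptor of Tlr4, by both measures (0.850 and 0.938), then to Cd274 (0.838) and Casp9 (0.832) from the 3M mean and to Fam151b (0.861) and Ccnb2-ps (0.827) within groups. Irf5 was closest to Slc22a4 (0.871), Adgrf4 (0.842) and Tap2 (0.834) from the 3M mean, and to Nup188 (0.893), Apex2 (0.825) and Ppm1h (0.770) within groups. For Irf2 these were Uevld (0.823), Cep135 (0.821) and Pnn (0.804), and within groups Gm15663 (0.891), Gm2710 (0.861) and Uevld (0.849). For Irf3 they were Dusp10 (0.836), Bbs2 (0.784) and Acaa1a (0.779), and Gm14137 (0.908), Cep250 (0.871) and Dusp10 (0.850). Listed interferon targets among the 50 nearest genes numbered 6 and 1 for Irf1, 1 and 0 for Irf5, and 0 for Irf2 and Irf3. Without the 2 samples farthest from the median of the factor, r from the 3M mean was 0.506 for Irf2 with Uevld, 0.57 for Irf2 with Cep135 and 0.583 for Irf3 with Acaa1a, so these relations rest in large part on those samples. For the other genes named by likeness from the 3M mean to the 7 factors it was 0.656 to 0.963. For those named within groups, r without the 2 farthest samples was 0.631 to 0.918.

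**Figure D4:**
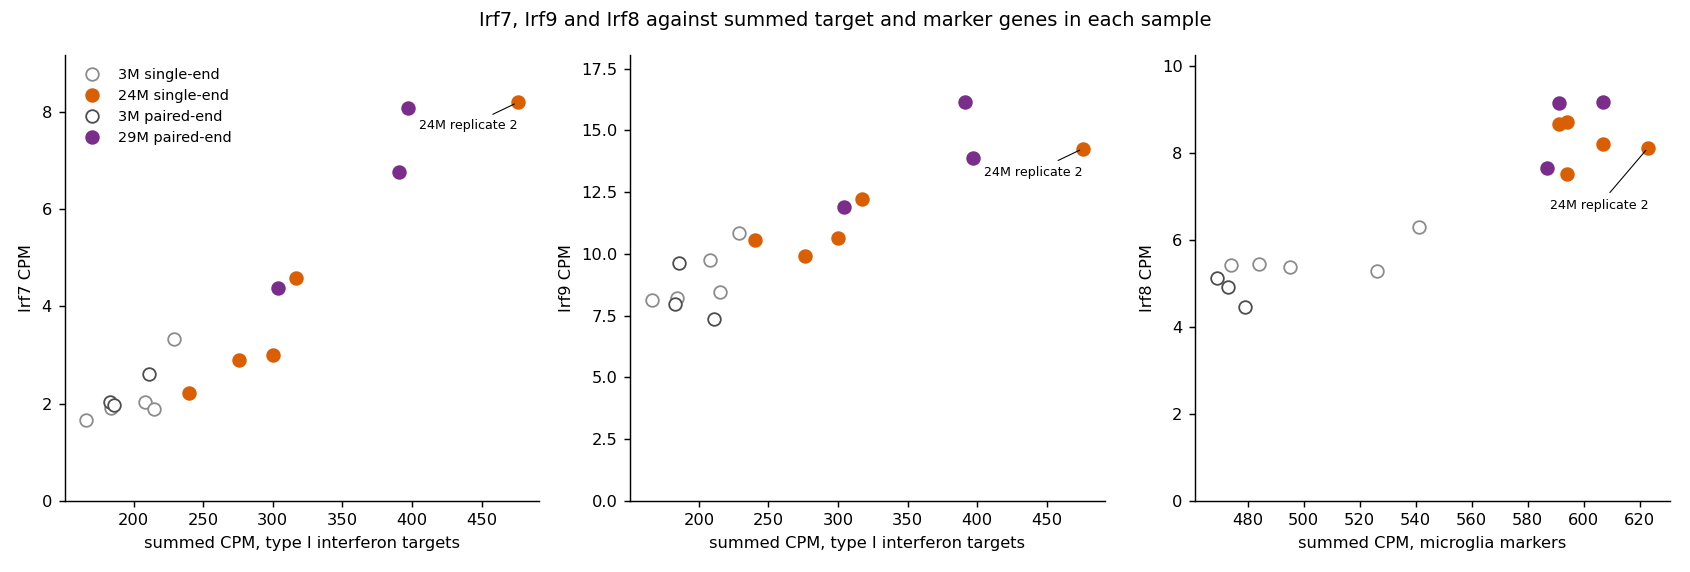
CPM of Irf7 and Irf9 against the summed CPM of the 32 type I interferon targets, and of Irf8 against that of the 14 microglia markers, in each of the 16 samples; open circles are 3M samples and filled ones aged samples. Irf7 climbed with the target sum up to 24M replicate 2 (476 CPM), and Irf8 formed a young and an aged cluster on both axes.

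The other factors were divided by the same microglia marker sum, which was again chosen after the data were seen. Irf7 was at 4.66 ± 0.793 CPM per 1000 CPM of markers at 3M and 10.8 ± 3.19 at 29M, and Irf9 at 17.6 ± 2.25 and 23.5 ± 3.24 (n = 3 each, exact two-sided permutation p = 0.1, the smallest possible for both). At this size the test cannot decide whether the ratios differ, and the part of cell number was not tested. At 24M Irf9 was at 18 ± 1.97 and 19.1 ± 2.58 (n = 5 each, exact permutation p = 0.460) and Irf7 at 4.26 ± 1.11 and 6.90 ± 3.80 (p = 0.159 by the same exact permutation test). Irf5 was at 8.11 ± 1.02 and 7.52 ± 0.938 at 24M (exact permutation p = 0.341) and at 7.47 ± 0.177 and 8.70 ± 0.966 at 29M (exact permutation p = 0.200). Ratios of Irf5 overlapped at 29M where its CPM values had not.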

How the data were processed

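Gene counts of 17 hippocampal polyA libraries were used. The authors aligned reads with STAR 2.3.0 to GRCm38.p2, assigned them to genes with HTSeq (intersection-nonempty) and deposited the raw counts, without normalization. Which annotation release served for counting was not given in the sources used here, and no strand option is listed among the settings changed from HTSeq's defaults. Reads outside genes were left out (no-feature reads were 8.59% to 15.9% of the total). Gene names and positions came from GENCODE M21 (36602 of 38355 identifiers), and promoter sequences from RefSeq (all 7 factors matched).

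Counts were tested with edgeR 4.0.16 in R 4.3.3 (quasi-likelihood, TMM, default filter), adjusted by Benjamini-Hochberg over all genes tested, separately at each age. DESeq2 1.42.0, other filters, scalings and fits, thinned libraries, and each library left out were alternatives. On simulated data edgeR recovered 189 of 200 genes changed by 1.5 (log2) at 24M and 195 of 200 at 29M, with 3 and 4 false calls. Smaller changes were not simulated, so these counts do not say how often changes as small as those of most factors would be called. The members and lists were chosen with earlier results of these data known. Named were the 7 factors, Irf4, fixed genes of the pathway, up to 5 called genes with the largest change per list and age, and the 3 genes most like each factor by 2 measures (log2 CPM, prior count 2, mean of at least 1 CPM). Some of these genes are not reported here.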

Additional observations from a re-analysis of the deposited data

Results flagged for a closer look

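In 3M single-end replicate 2, Irf1 (10.96 CPM), Irf7 (3.325 CPM) and Irf8 (6.286 CPM) lay far above the other 4 young samples of the group, and so did the summed targets of Irf1 and interferon-gamma (336 CPM). Summed blood markers were far above the rest of the 24M group in replicate 2 (544 CPM). In each case the gap to the nearest sample took up more of the group's range than Dixon's 95% critical value for 5 samples allows. In all, 22 groups of values were tested this way and 5 were flagged, where chance flags about 1 in 20, and the 7 factors and 4 sums share libraries. No factor's effect differed between the ages by test.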

How the results depend on the processing

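The number of factors called higher at 24M was 1 and became 2, by the addition of Irf7, with DESeq2 (adjusted p = 0.0350), with all 4 groups in 1 fit (0.0430), with the 24M libraries kept apart (0.0498) and with the replicate number as a block (0.0205). In the last 2 of these fits, 24M replicates 1 and 4 entered as separate samples. With thinned libraries it was 0, with Irf8 at 0.47 (log2). At 29M the number stayed between 2 and 3: all 4 groups in 1 fit left out Irf7 (log2 fold change 1.55, adjusted p = 0.110). Leaving out single libraries gave 1 at 24M in each fit, 2 to 3 at 29M, and 3 to 4 over both ages. Replicate numbers did not pair the samples, since same-numbered samples correlated by at most 0.0965 in their deviations; the block gave 2 factors at 24M and 3 at 29M. Type I interferon targets called at 24M numbered 8 with thinned libraries, 5 without 24M replicates 1 and 4 (chosen after seeing the data), and 5 to 16 with single libraries left out; at 29M they numbered 6 with all 4 groups in 1 fit and 9 to 20 with single libraries left out. Targets of Irf1 and interferon-gamma called at 24M numbered 2 with DESeq2, without the filter, in the fit of 4 groups and with the libraries kept apart, 3 with the replicate block, 0 without 24M replicates 1 and 4, and 0 to 8 with single libraries left out. At 29M they numbered 0 in the fit of 4 groups and 3 to 10 with single libraries left out. The cause was not tested. Estimates near 0 changed sign: the difference between the ages for Irf2 (-0.00645 with DESeq2, -0.00345 with its size factors, -0.0321 without 24M replicates 1 and 4, -0.0607 to 0.0625 with single libraries left out), that for Irf3 (-0.00906 without 24M replicates 1 and 4, -0.0493 to 0.0823 with single libraries left out), and Irf3 at 29M (-0.112 to 0.0306 with single libraries left out). Irf7 had the widest error of the factors at both ages.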

Other observations

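Markers of other cells that the tissue could hold were mostly not called. Neuron, astrocyte, oligodendrocyte, choroid plexus and hippocampal markers had 0 called genes at both ages in edgeR's test, with median log2 fold changes between -0.07 and 0.15 and 0 to 3 genes of each list at an unadjusted p under 0.05. Cldn5, an endothelial tight-junction gene, was lower at 24M (log2 fold change -0.60, adjusted p = 0.0242 in edgeR's quasi-likelihood test), a call that not every fit leaving out a library kept. Striatal markers had a median of -0.78 at 24M with 0 of 6 above 0, 0 called and 3 at an unadjusted p under 0.05. With single libraries left out that median ran from -0.96 to -0.11, and 0 to 1 were called lower. At 29M the striatal median was -0.06 and 1 of 6 was called lower, beside 0.113% of all tested genes. In each of the 6 fits that left out a library at 29M, 1 striatal marker was called lower. Blood markers had a median of 1.32 at 24M (0.575 to 1.53 with single libraries left out) with 0 of 5 called and all 5 at an unadjusted p under 0.05, and 0.79 at 29M with 2 of 5 called, Hba-a1 (0.95) and Alas2 (0.85), beside 1.34% of all tested genes called higher. With single libraries left out at 29M, 0 to 5 blood markers were called, and 0 in 4 of 6 fits: without 3M paired-end replicate 1 or 3 or 29M replicate 2 or 3. Markers of border macrophages had a median of 0.50 at 24M (6 tested) and 0.48 at 29M (3 tested; 0.183 to 0.818 with single libraries left out), with 0 called by edgeR and 3 and 0 at an unadjusted p under 0.05; up to 2 were called at 24M with a library left out.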
